A study of Drosophila melanogaster with 12 samples.

Results

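The respiratory chain and ATP synthase of mitochondria are built from proteins of both genomes, and 101 of the 17561 genes in the deposited count table of Drosophila melanogaster embryos carry a symbol of this machinery. They were chosen by symbol alone: ND- for complex I, Sdh for complex II, UQCR- for complex III, COX followed by a digit for complex IV, ATPsyn for complex V, and the mt: symbols of the protein genes of the mitochondrial DNA. The nuclear genome holds 88 of them and the mitochondrial genome 13. Of the nuclear genes, 63 encode a subunit (34 of complex I, 4 of complex II, 6 of complex III, 8 of complex IV and 11 of complex V), 24 carry the symbol of a copy related to a subunit (such as ATPsynbetaL beside ATPsynbeta), and 1, Sdhaf3, encodes an assembly factor of complex II. The symbol rule misses subunits with other names, among them RFeSP and Cyt-c1 of complex III, levy and cype of complex IV and blw, the alpha subunit of ATP synthase.

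Poly(A) RNA of whole embryos aged 20 to 24 h was sequenced in 4 groups of 3 libraries: elav null, elav fne double null (null for both genes), elav WDd, and a control called WT. The WT embryos are themselves labelled as carrying a mutant elav allele, e5, over the FM7 balancer X chromosome, and mutant embryos were picked by the missing GFP of that balancer (FM7 KrGFP) together with their autofluorescence morphology. ELAV, an RNA-binding protein of neurons, acts on alternative splicing and on where poly(A) tails are added, and the fne gene encodes a close relative. What the WDd allele changes is not stated in the labels, nor are sex, batch and the number of embryos per library. The WT label names an e5 X chromosome together with a balancer X, as females carry. Sex may therefore differ between WT and the mutants, and it cannot be told apart from genotype in comparisons with WT. Whether replicates are separate collections is not stated either, so p-values measure the spread of these 12 libraries, which may be technical.

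Library totals ran from 22491041 to 97043662 counts. Levels are CPM, counts scaled to a common library size with TMM factors, and a count of 3 in 1 library was worth 0.0328 to 0.139 CPM. elav had 3.98, 4.78 and 6.27 CPM in the elav null libraries, 4.99, 5.53 and 6.12 CPM in the double null, 145.5, 191 and 155 CPM in WDd, and 68.6, 109.5 and 160.5 CPM in WT. fne had 173, 243 and 36.2 CPM in elav null, 19.6, 30.6 and 19.8 CPM in the double null, 214, 276 and 272 CPM in WDd, and 135, 202 and 249.7 CPM in WT. The library labelled elav null replicate 3 thus had fne near the double null level, and it also detected the fewest genes at an equal depth of 2e+07 counts, 10524 against 11550 to 15597 in the other 11 libraries. The calls and counts of elav null against WT are therefore also given without it, from a fit of the other 11 libraries.

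Complex I passes electrons of NADH, and complex II those of succinate, to ubiquinone. Complex III hands them on to cytochrome c and complex IV to oxygen, and complex V makes ATP with the proton gradient that complexes I, III and IV build up. All subunits of complex II are nuclear, while the mitochondrial DNA encodes part of the other 4.

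Per kilobase of exon, the abundant mitochondrial genes stood far above the nuclear ones. In WT, mt:CoIII and mt:CoI of complex IV averaged 9665 and 7517 CPM per kb, mt:Cyt-b of complex III 4030.3, mt:ATPase6 of complex V 4061, and the 7 mt:ND genes of complex I had a median of 409. mt:ND6, at 2.65 CPM per kb in WT, and mt:ATPase8, at 17.7, lay far below most nuclear subunits. Among nuclear subunits in WT the median level per kb was 138 for complex I, 142 for complex II, 225 for complex III, 452 for complex IV and 421 for complex V. The highest were ATPsynC, the c-ring subunit of ATP synthase, at 1623 and ATPsynbeta, its catalytic subunit, at 1136 CPM per kb.

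Of the 63 nuclear subunit genes, 59 had over 5 CPM in every library, and the lowest of these values was 14.3 CPM. The other 4 were counted at or near 0. ND-MNLL and UQCR-14 had no count in any library, and neither did the copy COX5BL. Every annotated exon base of these 3 genes is shared with another gene: that of ND-MNLL with CG45089 (0 counts), on the same strand, that of UQCR-14 with CG32576 (7021 counts over the 12 libraries) and that of COX5BL with Trmt6 (14019 counts), both on the opposite strand. A count of 0 cannot be read there as absence of their RNA. ND-B8, at 0 to 1.78 CPM, and ND-MWFE, at 0 to 3.46 CPM, had 84.6% and 65% of their exon bases unshared. In all, 42 of the 101 genes share at least 1 exon base with another gene.

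In all, 92 of the 101 genes passed the filter on low counts and were tested: 61 of 63 nuclear subunits, 17 of 24 related copies, Sdhaf3, and the 13 mitochondrial genes. A gene is called at an adjusted p under 0.05 in edgeR's quasi-likelihood test, with Benjamini-Hochberg adjustment over all 14031 genes tested, and log2 fold changes are given with their standard error (SE).

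The nuclear genes of the respiratory chain were lower in the elav fne double null than in WT across all 5 complexes. Of the 92 genes tested, 39 were lower and 1, the related copy COX6AL2, was higher. COX6AL2 had counts in the double null libraries alone, so it could be called in no other direction. Over all genes tested 14.7% were lower and 6.68% higher in this comparison. All 39 were nuclear subunits, so 39 of 61 fell: 21 of 33 in complex I, 4 of 4 in complex II, 3 of 5 in complex III, 4 of 8 in complex IV and 7 of 11 in complex V. The median log2 fold change of the 61 was -0.82, beside -0.03 over all genes tested. Of the 59 subunits above 5 CPM, every one had a fold change below 0, from -1.65 to -0.44. The 3 double null libraries all lay below the 3 WT libraries in 49 of the 61, while 25.4% of all genes tested did so.

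Muscle, a tissue rich in mitochondria, was followed beside them by its markers. Of 20 muscle markers, 17 were lower in elav null embryos and 20 in the double null, beside 11.7% and 14.7% of all genes tested. Their summed level was 21756, 11461 and 3400.3 CPM in elav null, 3297 to 6164 CPM in the double null, 58322 to 61869 CPM in WDd and 49783 to 56590 CPM in WT. Within elav null the libraries ranked alike in this sum and in their nuclear respiratory share. Within the double null, within WDd and within WT they did not. None of the 20 was at 0 in any group. In whole embryos fewer cells of a type and less RNA per cell cannot be told apart. The part of muscle in the respiratory results was not tested.

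**Figure D1:**
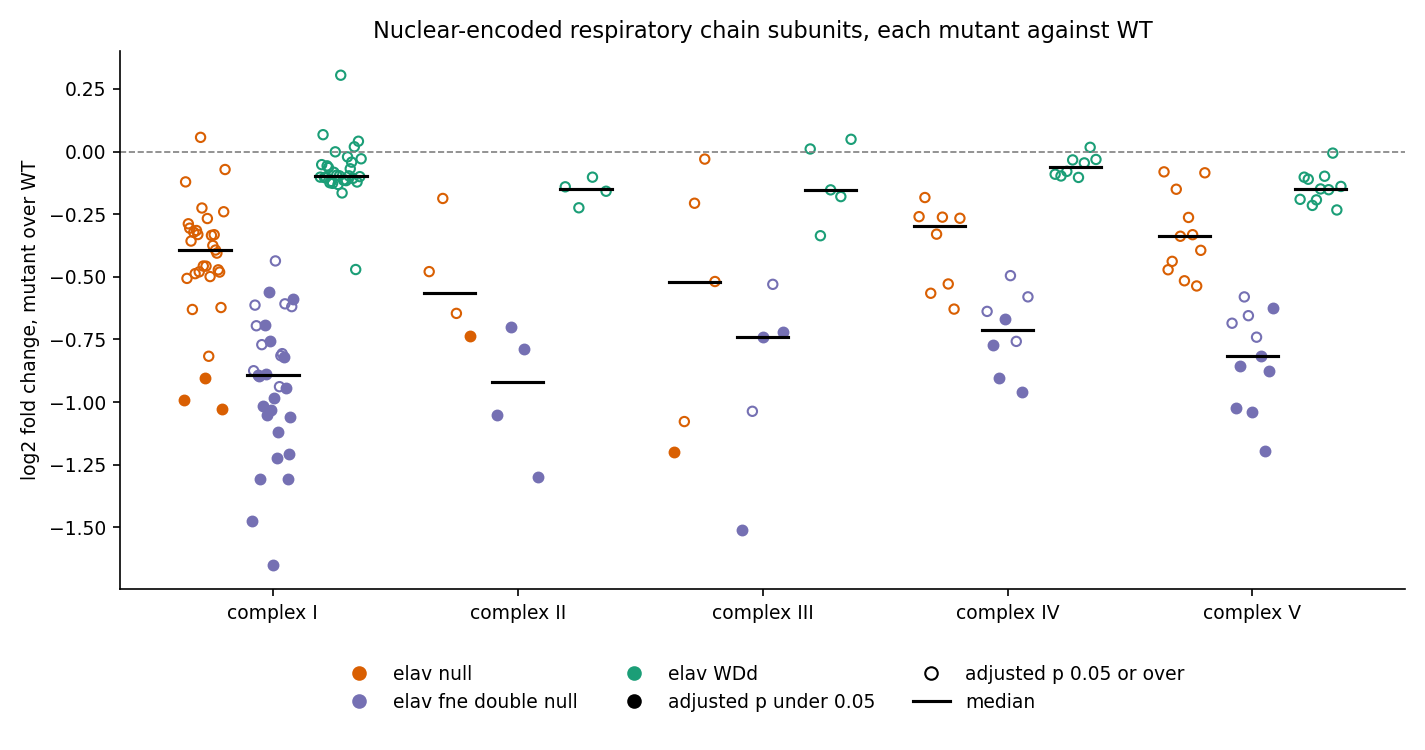
Log2 fold change of nuclear subunit genes in elav null, the elav fne double null and elav WDd, each over WT, by complex (1 point per gene, bar: median; ND-B8 and ND-MWFE, at a few CPM or less, are left out). In the double null all points lie below 0 and 39 are called, 5 of those shown are called in elav null and 0 in WDd.

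In complex I, 6 of the 7 nuclear core subunits, which hold the flavin and the iron-sulphur clusters or the quinone site, fell in the double null. ND-49, of the quinone site, had 151, 172 and 118 CPM in the double null, against 325, 320 and 268 CPM in WT (log2 fold change -1.05, SE 0.20, adjusted p = 0.00163). ND-23, an iron-sulphur subunit, averaged 50.6 ± 4.53 CPM in the double null and 125 ± 31.9 CPM in WT (SD, n = 3 each; -1.31, SE 0.25, adjusted p = 0.00165 in edgeR). ND-75, the most abundant nuclear subunit of complex I by CPM, had 289, 271 and 229 CPM in the double null, against 417, 445 and 471 CPM in WT. Its log2 fold change was -0.75 (SE 0.19, edgeR adjusted p = 0.0114), with no overlap between the groups, and it was not called without double null replicate 3 (-0.65, edgeR adjusted p = 0.0635). ND-24 did not pass the test (-0.77, SE 0.27, edgeR adjusted p = 0.0594). The largest fall of the complex was that of an accessory subunit, ND-AGGG (3L:24976254-24977118, dm6). It had 16.8, 19.1 and 14.3 CPM in the double null, against 61.2, 60.5 and 35.4 CPM in WT (-1.65, SE 0.23, edgeR adjusted p = 0.000193). ND-13A, also accessory, averaged 25.5 ± 3.26 CPM in the double null and 70.9 ± 26.8 CPM in WT (-1.47, SE 0.29, edgeR adjusted p = 0.00254).

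Complex II, the succinate dehydrogenase that also serves the tricarboxylic acid cycle, fell in all of its subunits. SdhA, the flavoprotein that oxidises succinate, had 203, 203 and 165 CPM in the double null, against 364, 417 and 401 CPM in WT (-1.05, SE 0.18, edgeR adjusted p = 0.000699). SdhD, a membrane anchor, had 40.3, 41 and 40.8 CPM in the double null, against 122, 110.5 and 68.2 CPM in WT (-1.30, SE 0.22, edgeR adjusted p = 0.000775). The double null libraries were within 1 CPM of each other, and the WT libraries spread widely. SdhB, the iron-sulphur subunit, and SdhC, the other anchor, had log2 fold changes of -0.70 (SE 0.20) and -0.79 (SE 0.23), with edgeR adjusted p = 0.0258 and 0.0276. Neither was called without any 1 of the 3 double null libraries or of WT replicates 1 and 2, where the adjusted p was 0.0703 to 0.0958 for SdhB and 0.0862 to 0.155 for SdhC in edgeR.

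In complex III the small subunit UQCR-11 (3L:25120709-25126171) fell most, with 31.1, 28.8 and 37.8 CPM in the double null, against 130.5, 83.5 and 64.8 CPM in WT (-1.51, SE 0.28, edgeR adjusted p = 0.00154). The core protein UQCR-C1 averaged 432 ± 41.2 CPM in the double null and 722 ± 58.3 CPM in WT (-0.74, SE 0.19, edgeR adjusted p = 0.0109), and it was not called without double null replicate 3 (-0.65, edgeR adjusted p = 0.0619). UQCR-6.4, at 17.7 to 24.7 CPM in the double null, against 22.1 to 74.9 CPM in WT, had a log2 fold change of -1.04 with an SE of 0.41 and did not pass the test. In complex IV, COX7C, a small subunit, fell most (119, 97.2 and 124 CPM in the double null, 307, 204 and 151 CPM in WT; -0.96, SE 0.24, edgeR adjusted p = 0.012). It was not called without double null replicate 2 (-0.84, edgeR adjusted p = 0.0702) or without WT replicate 1 (-0.62, edgeR adjusted p = 0.0703). COX4, the most abundant nuclear subunit of complex IV by CPM, averaged 299 ± 23.1 CPM in the double null and 465 ± 138 CPM in WT, and its groups overlapped (-0.64, SE 0.27, edgeR adjusted p = 0.113).

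In complex V, ATPsynbeta (4:1031484-1034917) had 1239, 1325 and 992 CPM in the double null, against 2909, 3044 and 2180 CPM in WT (-1.19, SE 0.24, edgeR adjusted p = 0.00265). ATPsynC, the most abundant nuclear gene of the set, had 1571, 1562 and 1337 CPM in the double null, against 3418, 3047 and 2630 CPM in WT (-1.02, SE 0.21, edgeR adjusted p = 0.00267). For both, every double null library lay below every WT library. ATPsyngamma, of the rotating stalk, fell least among the called subunits of the complex (-0.62, SE 0.21, edgeR adjusted p = 0.0482).

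**Figure D2:**
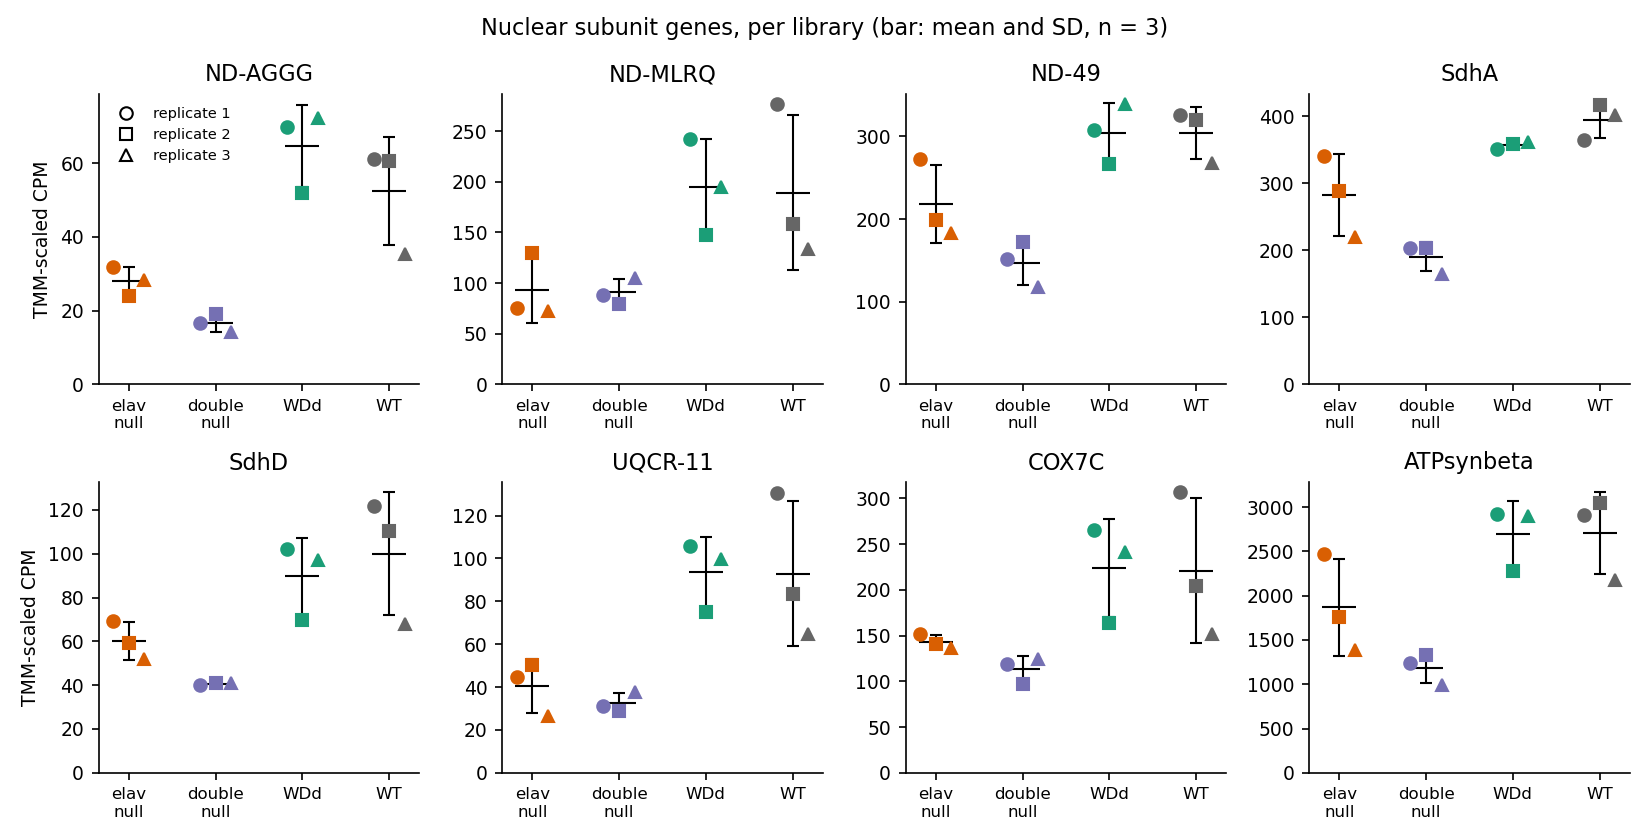
CPM of 8 nuclear subunit genes in each library of elav null, the elav fne double null, elav WDd and WT (points: libraries, bar: mean and SD, n = 3). The double null libraries lie below all WT libraries in each panel, and the WDd libraries overlap WT in each panel but that of SdhA.

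ND-AGGG, ND-49, ND-20, SdhA, SdhD, UQCR-11, ATPsynC and ATPsynbeta were called lower under all 13 alternatives run for them in this comparison. The number of genes called depended on single libraries. It was 22, 14 and 19 without double null replicates 1, 2 and 3, 15 and 20 without WT replicates 1 and 2, and 54 without WT replicate 3. RLE scaling, which shifted the median of all genes by 0.13 upward on the log2 scale, gave 26 lower and 1 higher.

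In elav null against WT the same test called 6 of 92 genes, all lower, while 11.7% of all genes tested were lower, 5.99% higher and 17.7% called in either direction. The share of members called, 6 of 92, was thus not above that of all genes. The median over the 61 nuclear subunits was -0.39, beside -0.11 over all genes tested. ND-AGGG had 31.7, 24 and 28.3 CPM in elav null and 61.2, 60.5 and 35.4 CPM in WT (-0.90, SE 0.23, edgeR adjusted p = 0.0136). UQCR-11 had 44.8, 50.1 and 26.3 CPM in elav null, against 130.5, 83.5 and 64.8 CPM in WT (-1.20, SE 0.28, edgeR adjusted p = 0.00864). ND-MLRQ (3L:23339326-23345936), an accessory subunit named for complex I whose mammalian counterpart is now placed in complex IV, had 75.8, 130 and 72.7 CPM in elav null and 276, 158 and 133 CPM in WT (-1.03, SE 0.30, edgeR adjusted p = 0.0286). In these 3 genes all elav null libraries lay below all WT libraries, as in 6 of the 61 nuclear subunits and 21% of all genes tested. SdhD (-0.74, SE 0.22, edgeR adjusted p = 0.0325) and ND-13A (-0.99, SE 0.29, edgeR adjusted p = 0.0311) were called with overlapping groups. ND-MWFE was called too (-4.07, SE 1.18, edgeR adjusted p = 0.0292), at 0 to 0.264 CPM in elav null and 1.19 to 3.46 CPM in WT.

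The elav null libraries differed much among themselves. Replicate 1 lay below the lowest WT library in 8 of the 61 nuclear subunits, replicate 2 in 21, and the library labelled replicate 3 in 55, where the double null libraries did so in 53, 57 and 53 and the WDd libraries in 4, 16 and 3. The same was not counted over all genes, and the library labelled replicate 3 has the fewest counts. These numbers therefore do not set the subunits apart from other genes. ATPsynbeta had 2468, 1755 and 1384 CPM in elav null replicates 1 to 3, against 1239, 1325 and 992 CPM in the double null. SdhA had 340.1, 288 and 219 CPM in elav null, against 203, 203 and 165 CPM in the double null. The third library is thus the closest of the 3 to the double null in both genes. Without it, ND-AGGG (-0.90, edgeR adjusted p = 0.0274) and UQCR-11 (-0.96, edgeR adjusted p = 0.0267) were called, while ND-MLRQ (-0.87) and SdhD (-0.63, edgeR adjusted p = 0.0928 for both) were not. The count of calls was 3 without it, 10 without elav null replicate 1, 3 without WDd replicate 1, 1 without WT replicate 1 or 2, 10 without WT replicate 3, and 0 in a fit of the 6 libraries compared. Without the library labelled replicate 3, 11.1% of all genes tested were lower and 5.82% higher. UQCR-11 was called under 11 of 12 alternatives. ND-AGGG was called under 8 of 12, and not without elav null replicate 2 (-0.80, edgeR adjusted p = 0.0556), WT replicate 1 (-0.76, edgeR adjusted p = 0.0569) or WT replicate 2 (-0.83, edgeR adjusted p = 0.0635).

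In elav WDd against WT no gene of the set was called, in a comparison where 0.2% of all genes tested were. None of the 92 had an unadjusted p under 0.05 in edgeR, against 644 of all 14031 genes tested (4.59%), and DESeq2 called 0 as well. The median over the 61 nuclear subunits was -0.10, beside -0.03 over all genes. For the 59 subunits above 5 CPM the fold changes ran from -0.47 to 0.30, with SEs of 0.17 to 0.40. ATPsynbeta had 2927, 2276 and 2895 CPM in WDd and 2909, 3044 and 2180 CPM in WT (-0.01, SE 0.24). ND-AGGG had 69.8, 52 and 72.4 CPM in WDd, against 61.2, 60.5 and 35.4 CPM in WT (0.30, SE 0.22). SdhA had 351, 359 and 361 CPM in WDd and 364, 417 and 401 CPM in WT (-0.14, SE 0.17). SdhA and SdhB were the 2 of 61 subunits with all WDd libraries below all WT libraries, where 7.6% of all genes tested were so placed. With 3 libraries a group fold changes well above these SEs could also stay uncalled: in the double null, ND-24 at -0.77 with an SE of 0.27 was not called.

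The mutants were also set against each other. WDd was higher than the double null in 27 of 92 genes and lower in 0, where 14.3% of all genes tested were higher and 6.6% lower. All WDd libraries lay above all double null libraries in 55 of the 61 nuclear subunits and in 28.9% of all genes tested. All 27 were nuclear subunits, 16 of complex I, 2 of complex II, 3 of complex III, 2 of complex IV and 4 of complex V. ND-AGGG (log2 fold change 1.95, SE 0.23, edgeR adjusted p = 6.66e-05), UQCR-11 (1.52, SE 0.28, edgeR adjusted p = 0.00156) and ATPsynbeta (1.19, SE 0.24, edgeR adjusted p = 0.00295) were among them. The count was 9 to 13 without any 1 of the 3 double null libraries or of WDd replicates 1 and 3, and 51 in a fit of the 6 libraries compared.

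WDd was higher than elav null in 3 genes, ND-AGGG (1.21, SE 0.23, edgeR adjusted p = 0.00231), UQCR-11 (1.21, SE 0.28, edgeR adjusted p = 0.00858) and ND-MLRQ (1.07, SE 0.30, edgeR adjusted p = 0.0241), and in 0 genes lower, while 11% of all genes tested were higher and 5.83% lower. The WDd libraries all lay above the elav null libraries in 10 of 61 nuclear subunits and in 23.8% of all genes tested. Leaving out 1 library gave 8 calls without elav null replicate 1, 7 without replicate 2, 3 without replicate 3 (ND-AGGG and UQCR-11 higher and ND-B8 lower), 5 without WT replicate 1 or 3 and 1 without WDd replicate 1. Without elav null replicate 3, 10.9% of all genes tested were higher and 5.89% lower. Between the double null and elav null 0 of 92 were called, beside 0.228% of all genes called. At an unadjusted p under 0.05 in edgeR there were 24 of the 92, beside 13.1% of all genes tested. DESeq2 called 2, ND-51 and SdhA. When elav null replicate 3 was dropped, 11 of 93 members tested were lower in the double null, among them SdhA, SdhB and ATPsynbeta. Over all genes tested in that fit, 4.94% were lower and 2.18% higher in the double null. With all libraries kept, the median over the 61 nuclear subunits was -0.48 in the double null over elav null. In 22 of the 61 all double null libraries lay below all elav null libraries, as in 7.41% of all genes tested.

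The X chromosome and the autosomes were looked at apart, since the balancer and the elav locus are on the X. In the double null 8 of 10 tested X-linked nuclear subunits were lower than in WT (median -0.85), and 31 of 51 autosomal ones (median -0.82). Over all genes tested 14.7% were lower, with medians of -0.09 on the X and -0.02 on the autosomes. In elav null 0 of 10 (median -0.38) and 6 of 51 (median -0.41) were lower. Over all genes tested 11.7% were lower there, with medians of -0.20 on the X and -0.10 on the autosomes. The X-linked roX1 RNA, which is made in males for dosage compensation, had 525 to 701 CPM in elav null, 733 to 1039 CPM in the double null and 710 to 756 CPM in WDd, against 225 to 300.2 CPM in WT. In WDd roX1 was higher by 1.45 (SE 0.19, edgeR adjusted p = 0.00639). There 0 X-linked subunits were called, in a comparison where 0.2% of all genes tested were called. The part of sex and X dosage in these results was not tested.

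ND-MLRQ, ND-AGGG and UQCR-11 lie within 1.79 Mb at the centromere end of chromosome arm 3L, and ATPsynbeta and ND-49 on the small chromosome 4. This was seen after the values. From ND-MLRQ to the end of the arm 40 genes were tested, of which 3 are members. In the double null against WT 14 of the 40 were lower and 0 higher (35%), and 32 of 100 genes on chromosome 4 were lower (32%), beside 14.8% on the rest of 3L. In elav null against WT the shares lower were 25% and 13%, beside 12.6%. In WDd against WT 0 were called in either stretch.

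None of the 13 protein genes of the mitochondrial genome was called in any of the 6 comparisons, 0 had an unadjusted p under 0.05 against WT in any mutant, and DESeq2 called 0. Their log2 fold changes over WT ran from -2.03 to 2.21 in elav null, from -0.54 to 2.24 in the double null and, in WDd, from -0.44 to 0.51, with SEs of 0.28 to 1.32. Their medians over WT were 0.24 with elav null, 0.15 with the double null, and 0.18 with WDd. mt:CoI had 10655, 12425 and 9223 CPM in the double null, against 11008, 13990.1 and 9641 CPM in WT (-0.10, SE 0.31). mt:CoIII averaged 8048 ± 158 CPM in the double null and 7626 ± 1442 CPM in WT (0.08, SE 0.28). mt:ND1 had 570.0, 1332 and 442 CPM in the double null, against 1110.0, 1408 and 887 CPM in WT, and was called lower only when the 3 libraries with the fewest detected genes, replicate 2 of the double null and replicates 1 and 3 of elav null, were left out together (-1.14, edgeR adjusted p = 0.00933), an alternative chosen after seeing the data. These SEs are larger than the median nuclear SE of 0.25, so smaller differences in mitochondrial genes were less detectable. They depended on elav null replicate 1. In a fit without it, SEs for the double null over WT ran from 0.22 (mt:CoIII) to 0.70 (mt:ATPase8). Since poly(A) RNA was selected, a level of these RNAs counts molecules with a tail only.

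As a share of all counts, the 88 nuclear genes made up 1.89, 1.46 and 1.05% in the elav null libraries, 1.10, 1.02 and 1.05% in the double null, 1.86, 1.49 and 1.74% in WDd, and 2.10, 1.89 and 1.42% in WT. The 13 mitochondrial genes made up 1.83, 5.14 and 4.77% in the elav null libraries, 3.68, 4.06 and 3.48% in the double null, 3.95, 3.25 and 4.14% in WDd, and 3.24, 4.16 and 2.64% in WT. The double null lay below WT in the nuclear share with no overlap, and overlapped WT in the mitochondrial share. The ratio of mitochondrial to nuclear counts was 0.969, 3.52 and 4.54 in the elav null libraries, 3.34, 3.98 and 3.31 in the double null, 2.13, 2.18 and 2.38 in WDd, and 1.55, 2.20 and 1.86 in WT. All double null libraries and elav null replicates 2 and 3 had a ratio above every WDd and WT library, and elav null replicate 1 one below them.

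**Figure D3:**
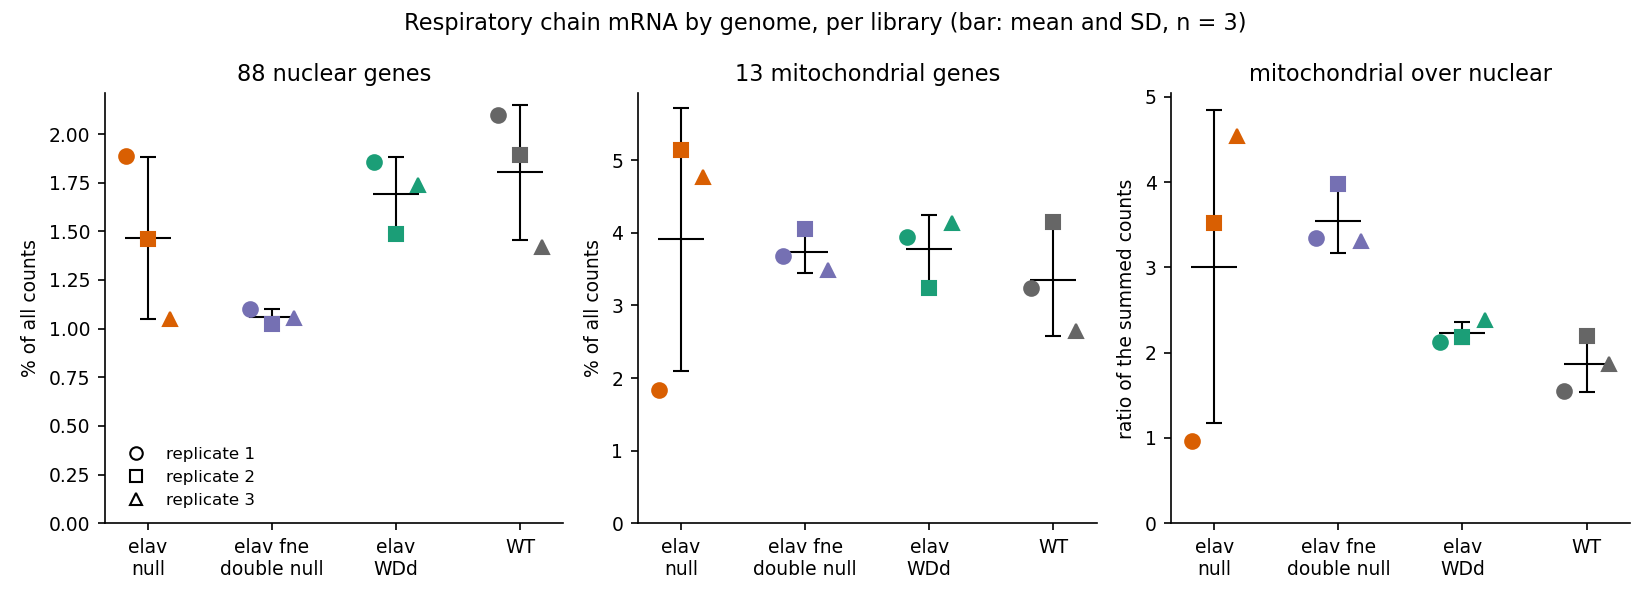
Share of all counts taken by the 88 nuclear and the 13 mitochondrial respiratory chain genes and the ratio of the summed counts, by library, in elav null, the elav fne double null, elav WDd and WT (bar: mean and SD, n = 3). The double null libraries have nuclear shares of 1.02 to 1.10% and ratios of 3.31 to 3.98, against ratios of 1.55 to 2.20 in WT.

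By complex, the nuclear part of complex V took 0.486 ± 0.0215% of counts in the double null and 0.881 ± 0.162% in WT, and its mitochondrial part 0.404 ± 0.0357% in the double null and 0.267 ± 0.0760% in WT (SD, n = 3 each). The nuclear part of complex IV took 0.162 ± 0.0129% in the double null and 0.245 ± 0.0719% in WT, and its mitochondrial part 2.30 ± 0.0653% in the double null and 2.15 ± 0.432% in WT. The nuclear part of complex I took 0.260 ± 0.0170% in the double null and 0.437 ± 0.0929% in WT, and its mitochondrial part 0.465 ± 0.172% in the double null and 0.480 ± 0.149% in WT. In each of these 3 complexes the nuclear share had a lower mean in the double null, while the mitochondrial share overlapped WT in complexes I and IV and lay above WT in complex V. Shares of counts are bound to each other, and no test was run on these sums.

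Elav null replicate 1 stood apart in its mitochondrial RNA. All 13 mitochondrial genes lay below the lowest WT library there, and 8 of its 61 nuclear subunits did. The share of all genes below WT in this library was not counted. mt:ND1 had 34, 784 and 871 CPM in the 3 elav null libraries and 1110.0, 1408 and 887 CPM in WT. mt:ND2 had 3.24, 153 and 463 CPM in elav null and 148, 172 and 89.6 CPM in WT, and mt:ND3 1.90, 104 and 261 CPM in elav null and 108, 186 and 140.1 CPM in WT. mt:CoI had 7704, 19929.7 and 15768 CPM in elav null and 11008, 13990.1 and 9641 CPM in WT. Mitochondrial rRNA made up 0.65% of the counts of this library, against 9.54 and 10.1% in the other elav null libraries and 2.14 to 3.54% in WT. The minus-strand genes mt:ND1, mt:ND4, mt:ND4L and mt:ND5 gave 3.59% of its mitochondrial protein-gene counts and 8.5 to 14.7% in the other 11 libraries.

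**Figure D4:**
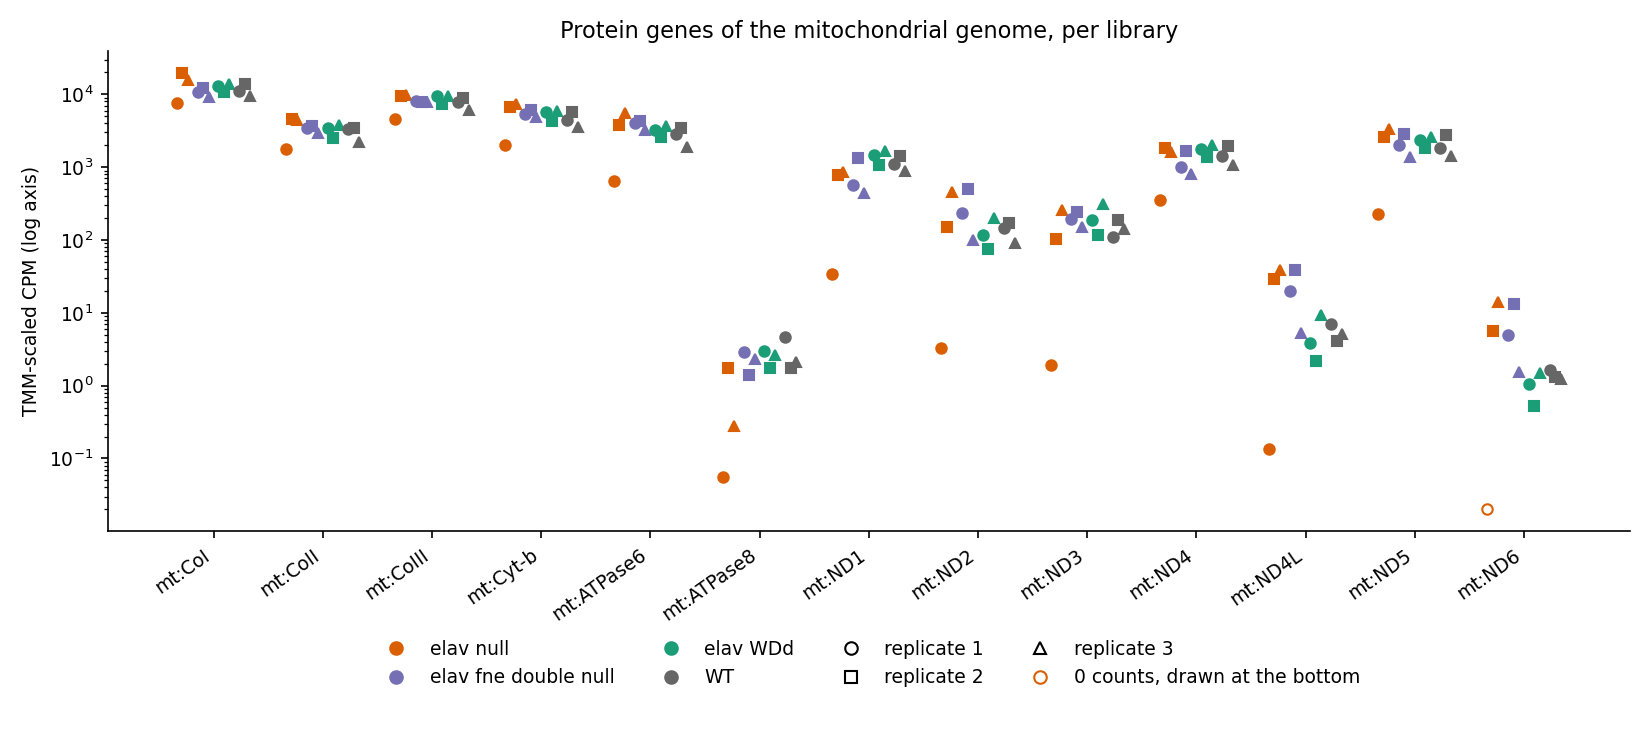
CPM of the 13 protein genes of the mitochondrial genome on a log axis, by library, in elav null, the elav fne double null, elav WDd and WT. Elav null replicate 1 is the lowest library in every gene (mt:ND6 had 0 counts there, drawn as an open symbol at the bottom), and mt:ND4L and mt:ND6 have their highest values in elav null replicate 3.

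The 2 least abundant mt:ND genes, mt:ND4L and mt:ND6, had the largest increases of the mitochondrial genome over WT in both nulls, and neither gene was called. mt:ND4L had 0.135, 29 and 38.8 CPM in elav null, 20.2, 38.4 and 5.21 CPM in the double null, 3.81, 2.19 and 9.29 CPM in WDd, and 7.11, 4.10 and 5.18 CPM in WT. mt:ND6 had 0, 5.55 and 13.9 CPM in elav null, 4.96, 13.2 and 1.52 CPM in the double null, 1.07, 0.527 and 1.48 CPM in WDd, and 1.64, 1.31 and 1.22 CPM in WT. Without elav null replicate 1, both were higher in elav null than in WT (2.64 and 2.81; edgeR adjusted p = 0.0178 and 0.0233). With it they were not called (2.05, SE 1.13, and 2.21, SE 1.32). mt:ATPase8, at 0.0563 to 4.67 CPM, was called lower in elav null without replicate 2 (-4.23, edgeR adjusted p = 0.0111) and not with it. In the double null, mt:ND4L and mt:ND6 were called higher in the fit of the 6 libraries compared (1.97 and 2.25; edgeR adjusted p = 0.0369 and 0.0412) and in a fit without elav null replicate 1 (1.97 and 2.25; edgeR adjusted p = 0.039 and 0.0371).

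The 24 related copies were at or near 0. The highest value of any copy in any library was 4.04 CPM in elav null, 3.43 CPM in the double null, 2.21 CPM in WDd and 1.60 CPM in WT, while base genes in the set ran from UQCR-6.4, at 15.3 CPM or more in every library, to ATPsynbeta, at 992 CPM or more. UQCR-14, with 0 counts, is the exception. The highest copies were ND-51L2, at 0 to 4.04 CPM beside 160 to 349 CPM for ND-51, ATPsynepsilonL, at 0 to 3.50 CPM, COX7AL, at 0 to 3.44 CPM beside 246 to 420.4 CPM for COX7A, and SdhAL, at 0 to 3.20 CPM beside 165 to 417 CPM for SdhA. Of the 17 copies tested, 0 were called in elav null and in WDd against WT, and in the double null COX6AL2 alone was higher. It had 0.158, 1.71 and 0.214 CPM in the double null and 0 counts in the elav null, WDd and WT libraries. It passed the filter on low counts through the double null alone, so its direction was fixed before the test. Against 3 counts in each WT library its mean was at least 17.2-fold higher, and at least 4.62-fold without double null replicate 2, which held most of the counts (edgeR adjusted p = 0.0492 with it). It was not called without any 1 library of the double null, WDd or WT, and only 33% of its exon bases are unshared. The summed level of 12 testis and male germline markers was 13.5 to 32.2 CPM in elav null, 12.5 to 22.1 CPM in the double null, 5.71 to 23.3 CPM in WDd and 11.5 to 20.5 CPM in WT.

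Genes around the chain were described from lists. Beside their counts, 11.7% of all genes tested were lower and 5.99% higher in elav null against WT. In the double null against WT the shares were 14.7% and 6.68%. Cytochrome c, which carries electrons from complex III to complex IV, was lower in both nulls. Cyt-c-p, its main gene, had 245, 198 and 93.5 CPM in elav null, 90.1, 87.7 and 89.9 CPM in the double null, 958, 595 and 920.2 CPM in WDd, and 1028, 799 and 512 CPM in WT. It fell by 2.12 (SE 0.34, edgeR adjusted p = 0.000594) in elav null and by 3.13 (SE 0.35, edgeR adjusted p = 4.05e-05) in the double null on the log2 scale, and its fold change in WDd was 0.08 (SE 0.32). Gpo1, the mitochondrial glycerol-3-phosphate dehydrogenase that also feeds electrons to ubiquinone, had 129, 101 and 64.3 CPM in elav null, 56.4, 53.1 and 52.5 CPM in the double null, 410.2, 369.7 and 437 CPM in WDd, and 447, 512 and 513 CPM in WT. It fell by 2.32 (SE 0.22, edgeR adjusted p = 1.72e-05) in elav null and by 3.18 (SE 0.23, edgeR adjusted p = 2.37e-06) in the double null. For both genes the nulls lay below all WDd and WT libraries. Of the 10 genes of Gpo1's list, other routes of electrons to ubiquinone, 1 was lower in elav null (median -0.0017) and 2 in the double null (median 0.02). These counts are near the shares over all genes. Of the 3 genes for cytochrome c and its lyase, 1 was lower in elav null embryos and 2 in the double null.

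Of the subunits that the symbol rule misses, Cyt-c1 (-0.94, SE 0.23, edgeR adjusted p = 0.0109) and RFeSP (-0.77, SE 0.22, edgeR adjusted p = 0.0242) of complex III fell in the double null, and 0 of 4 of that list in elav null. Of the 2 of complex IV, 0 were called. sun, the epsilon subunit of ATP synthase, fell in elav null (-1.18, SE 0.32, edgeR adjusted p = 0.0203). In the double null it fell likewise (-1.24, SE 0.32, edgeR adjusted p = 0.012). It was the 1 gene called of 3 in a list of complex V subunits and inhibitors. That list does not hold blw. Of 8 tested genes in a list for assembly of complex IV, 2 were lower in elav null, and 4 lower and 1 higher in the double null. The list includes ttm50, ttm2 and ttm3, relatives of a subunit of the mitochondrial protein import machinery rather than known assembly factors. ttm50 was lower in both (-0.93 and -1.14), as was Coa7 (-0.94 and -1.09), and Scox in the double null (-1.54, SE 0.32). Of 4 genes in a list for assembly of complex I and 1 for complex II, 0 were called in either null. Over all genes tested 11.7% were lower and 5.99% higher in elav null, and 14.7% and 6.68% in the double null. In the complex I list, ind matched by symbol only and is a homeobox gene of neuroblast patterning.

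The tricarboxylic acid cycle, which supplies NADH and succinate, had 8 of 19 genes lower and 2 higher in elav null. In the double null 12 were lower and 2 higher. Among all genes tested 11.7% were lower and 5.99% higher in elav null, and 14.7% and 6.68% in the double null. Idh3a, a subunit of isocitrate dehydrogenase, fell to 329.9, 305 and 234 CPM in elav null and 229.5, 256 and 175 CPM in the double null, against 566, 592 and 582 CPM in WT (edgeR adjusted p = 0.00162 for elav null and 0.000118 for the double null). CG1544 rose by 1.72 (SE 0.25) in elav null and by 1.92 (SE 0.25) in the double null. Of 10 tested carriers and pores of the inner and outer membrane, 2 were lower in elav null embryos and 4 in the double null, among them porin in both (-0.72 and -1.29), Bmcp in both (-0.89 and -0.67) and Mpcp1 in the double null (-5.54, SE 1.11). Mpcp1, a phosphate carrier, had 37.1, 58.5 and 0 CPM in elav null, 2.32, 4.14 and 2.75 CPM in the double null, against 136 to 159.6 CPM in WT. In the lactate and pyruvate list of 4, Ldh, lactate dehydrogenase, fell by 1.25 in elav null and by 2.45 in the double null. Pdk, which inhibits pyruvate dehydrogenase, rose by 1.28 in elav null and by 0.95 in the double null, and 2 of the 4 were lower in the double null.

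Among 7 nuclear regulators, srl, the fly PGC-1 coactivator, was lower, with 19.3, 19.5 and 29.3 CPM in elav null, 20.7, 19.5 and 26 CPM in the double null, 106, 118 and 125 CPM in WDd, and 104, 145 and 110 CPM in WT. It fell by 2.40 (SE 0.21, edgeR adjusted p = 9.95e-06) in elav null and by 2.44 (SE 0.21, edgeR adjusted p = 6.66e-06) in the double null. The nulls lay far below both other groups. ewg, the fly NRF-1 gene, was higher in both nulls (0.74, SE 0.20, and 0.77, SE 0.20; edgeR adjusted p = 0.0185 and 0.0118). Of 10 tested genes for replication and transcription of mitochondrial DNA, 4 were lower in each null, among them PolrMT, the mitochondrial RNA polymerase (-0.82 and -0.84), and bsf, a pentatricopeptide protein whose mammalian relative LRPPRC stabilises mitochondrial mRNA. bsf had 95.1, 76.7 and 103 CPM in elav null, 51.1, 40.8 and 41.9 CPM in the double null, 131, 132 and 135 CPM in WDd, and 156, 207 and 194 CPM in WT. It fell by 1.02 (SE 0.17) in elav null and by 2.06 (SE 0.17) in the double null, and it was lower in the double null than in elav null (-1.04, SE 0.17, edgeR adjusted p = 0.0409).

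Of the 2 mitochondrial rRNA genes, mt:srRNA was higher in both nulls. mt:srRNA, the small rRNA, had 5.19, 141 and 67.7 CPM in elav null, 57.8, 118 and 71.5 CPM in the double null, 7.13, 5.34 and 11 CPM in WDd, and 5.20, 10.3 and 6.71 CPM in WT. It was higher in elav null (3.27, SE 0.78, edgeR adjusted p = 0.0102) and likewise in the double null (3.48, SE 0.79, edgeR adjusted p = 0.00586). mt:lrRNA, the large rRNA, was not called (1.27 and 1.26, SE 0.68 each). The ratio of mt:lrRNA to mitochondrial mRNA counts was 0.355, 1.85 and 2.12 in the elav null libraries, 1.68, 2.10 and 1.82 in the double null, 0.813, 0.599 and 0.87 in WDd, and 1.09, 0.612 and 0.808 in WT. Elav null replicate 1 again lay on the other side of WT from the rest of the nulls. Of 9 genes of the mitochondrial unfolded protein response, 5 were lower and 1 higher in elav null, and 6 lower and 1 higher in the double null. The shares lower over all genes tested were 11.7% and 14.7%, and those higher 5.99% and 6.68%. Of mitochondrial chaperones and their partners, Trap1 (-1.08 and -1.27), Roe1 (-1.41 and -2.15) and Hsc70-5 (-1.17 and -1.81) were lower in both nulls. In WDd against WT 0 genes of any of these lists were called, beside 0.2% of all genes tested.

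When elav null replicate 3 was left out, the median over the 61 nuclear subunits in elav null against WT was -0.22, and that over the 13 mitochondrial genes -0.30, against 0.24 with it. ND-13A was not called (-0.75, edgeR adjusted p = 0.092) and ND-MWFE was (-3.57, edgeR adjusted p = 0.0311). Cyt-c-p (-1.81, edgeR adjusted p = 0.00085), Gpo1 (-2.08, edgeR adjusted p = 1.07e-05) and srl (-2.61, edgeR adjusted p = 4.81e-06) were called lower and mt:srRNA higher (3.32, edgeR adjusted p = 0.0141). Of the genes named above from lists, sun (-0.94, edgeR adjusted p = 0.0681) and porin (-0.55, edgeR adjusted p = 0.115) were no longer called. Mpcp1 was called lower in that fit (-1.58, edgeR adjusted p = 0.000769), and not with all libraries (-2.17, edgeR adjusted p = 0.146). The tricarboxylic acid cycle had 4 of 19 genes lower and 2 higher, the list for mitochondrial DNA 3 of 10 lower, and the unfolded protein response 5 of 9 lower and 1 higher. Over all genes tested in the fit without replicate 3, 11.1% were lower and 5.82% higher. Of the tissue markers, 18 of 20 for muscle were lower, and 10 of 13 for midgut, 10 of 14 for eggshell and yolk and 11 of 14 heat shock genes were higher.

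Markers of other tissues were counted as well. Beside them, 5.99% of all genes tested were higher and 11.7% lower in elav null. The shares in the double null were 6.68% and 14.7%. Of 15 neuron markers 0 were called in elav null and 8 were lower in the double null, their sums being 2228 to 3982 CPM in elav null, 2050.3 to 2421 CPM in the double null, against 2650 to 4989 CPM in WT. Of 13 midgut markers, 10 were higher in each null (10136 to 11492 CPM summed in elav null, 9377 to 11082 CPM in the double null, against 4556 to 5561 CPM in WT). Heat shock genes were higher in 11 and 10 of 13, glia markers in 3 and 2 of 10 with 0 and 1 lower, and fat body markers in 1 of 7 each with 0 and 1 lower, in elav null and the double null. Eggshell and yolk markers were higher in 9 of 14 in elav null, where replicate 2 reached a sum of 706.6 CPM, and in 0 of 14 in the double null. None of these lists had a gene called in WDd other than roX1 and roX2, beside 0.2% of all genes tested. Their part in the respiratory results was not tested.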

How the data were processed

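The members and gene lists were chosen with earlier results of these data known. The authors deposited raw read counts per gene. The submitters' processing notes name dm6, DESeq2 1.40.2, featureCounts 2.0.8, STAR 2.7.11a and Trim Galore 0.6.7 without saying what each did, and the labels give read pairs of 150 bp. Strand setting and the treatment of overlapping genes and of reads with several matches are not given in the sources used here, so reads of overlapping genes or near-identical copies cannot be told apart with certainty. All 17561 gene numbers matched the RefSeq table of the same assembly, and exons were read from Ensembl release 115. The file headers name the elav null allele over FM7 for the WT columns, where the labels name e5.

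From the counts, edgeR 4.0.16 (R 4.3.3) was run with TMM factors, filterByExpr, 1 quasi-likelihood model of all 12 libraries with group as its only term, and 6 two-sided comparisons with Benjamini-Hochberg adjustment over 14031 genes. The common biological coefficient of variation was 0.595. Sums of a genome or complex are raw counts over all counts of a library and carry no test. Depth limits and intervals cover counting error only. Genes were named by rule: the 13 mitochondrial genes, and per complex the called genes with the largest change, the most abundant gene and base genes with copies. Lists of genes around the chain name at most the 2 called genes with the smallest adjusted p in each null. Heat shock and tissue marker lists are given by counts or sums, without gene names. Any other gene with values (such as ND-13A, ND-23, ND-MWFE, ATPsyngamma, COX6AL2 and the rRNA genes) was named after its values were seen. Lists held 217 of 238 symbols in the table. The test was checked on simulated counts. Alternatives were RLE factors, factors without mitochondrial genes, no low-count filter, DESeq2 1.42.0, a fit of the 6 libraries compared, the replicate number as a block, and leaving out each library. Leaving out together the 3 libraries with fewest detected genes was added after seeing the data.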

Additional observations from a re-analysis of the deposited data

How the results depend on the processing

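Over the alternatives for single genes, 3579 values kept their side of the threshold, 49 passed it only there and 110 no longer did. Of the 3579, 231 changed sign, all of them called neither in the report's fit nor under the alternative. Counts of members called, with those in the report in brackets, were 0 (6) for elav null against WT and 51 (27) for WDd against the double null in fits of the 6 libraries compared, and with DESeq2 7 (3), 5 higher and 2 lower, for WDd against elav null and 2 (0) for the double null against elav null. Leaving out 1 library gave 1 to 10 calls for elav null against WT, 14 to 54 for the double null against WT, 0 to 11 for the double null against elav null, 1 to 8 for WDd against elav null, 9 to 38 for WDd against the double null and 0 throughout for WDd against WT. The cause was not tested. Factors without mitochondrial genes gave 6, 40, 0, 0, 3 and 27 calls in the 6 comparisons, as in the report. Against WT, RLE scaling called 5 members in elav null embryos, 27 in the double null, and 0 in WDd. It shifted the median of all genes by 0.13 in the double null and by -0.14 in WDd over the double null. Leaving out the 3 libraries with fewest detected genes gave 32 calls in the double null and 0 in WDd against WT, and 25 between WDd and the double null. The log2 ratio of the nuclear share in the double null over WT was -0.77, and -0.70 when the 2 mitochondrial rRNA genes were left out of the total.

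Deviations of same-numbered libraries were weakly correlated (-0.24 to 0.24). With 3 libraries a group this cannot settle whether the numbers mark shared collections. With the replicate number as a block, 4, 42 and 0 members were called in elav null, the double null and WDd against WT, and 0, 4 and 36 in the double null against elav null, WDd against elav null and WDd against the double null.

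Depth limits the related copies, ND-B8, ND-MWFE, mt:ATPase8 and, in most libraries, mt:ND6, which lie at a few CPM or less, and most of all the library labelled elav null replicate 3, where 3 counts were worth 0.139 CPM.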
